A study of Mus musculus with 24 samples.

Results

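The plantaris is a small fast muscle of the lower hindlimb. Its transcriptome in mice kept in normal air was described here from the 11 samples whose titles name wild-type muscle and air, out of 24 samples in the series. Every one of the 11 was labelled C57BL/6, wild type and plantaris muscle, exposed to normal air. The other samples came from mice exposed to tobacco smoke and were not used. Age, sex and animal numbers are not given in the sources used here, and nothing in the labels says that the samples came from separate animals, so the p-values below measure only the spread between these samples. All values come from 3′-end RNA sequencing, in which a transcript gives reads near its poly(A) tail, so that counts need no division by length and levels of different genes can be set side by side in CPM (counts scaled to a common library total, with TMM factors). A gene whose annotated 3′ end is wrong or missing can still read too low.

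Skeletal muscle fibres are classed by the myosin heavy chain that they make. Type 1 fibres contract slowly and carry Myh7, type 2A fibres carry Myh2 and are fast and oxidative, and type 2X and 2B fibres carry Myh1 and Myh4 and are faster and more glycolytic. Between the fibres lie capillaries, connective tissue, nerve branches, fat, blood and resident immune cells, and a whole-muscle library mixes the RNA of all of them.

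Total counts ranged from 2868808 to 4060568 per sample (mean 3529309, SD 432439, n = 11), and 16512 to 17490 genes had at least 1 count. A count of 3, used as the floor, corresponded to 0.739 to 1.05 CPM and covers counting error only. Replicate 11 stood apart from the other libraries. Its median correlation with the others was 0.951, against 0.964 to 0.974 for replicates 1 to 10, it was the highest sample for 1980 and the lowest for 1883 of 10042 tested genes (at most 1056 and 1049 in any other replicate), and its 10 most abundant genes held 46.2% of its counts, against 36.9% to 39.8% elsewhere. Its difference from the mean of the others grew with abundance, with a median log2 difference of 0.21 over the 85 genes at or above 1000 CPM and −0.02 over the 3984 tested genes below 10 CPM. Calls that rest on replicate 11 are therefore given with and without it. Replicate 2 carried the skin keratins Krt5, Krt14 and Krt15, which were at or near 0 elsewhere.

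The sequences of 4 promoters are shown because they belong to genes high in replicate 5, described further on, and hold a motif searched for, Dusp1 and Btg2 among the genes that rose with Fos, and Per1 and Otud1 among the 20 genes with the strongest evidence of excess variability. Each is the RefSeq promoter window of 300 bases (250 before to 50 after the annotated start, GRCm38.p6), written 5′ to 3′ on the gene's strand. Capitals mark the cAMP response element TGACGTCA and the E-box CACGTG, both of which read the same on the other strand. Dusp1 lies at chr17:26508423-26508722 (minus strand), Btg2 at chr1:134079106-134079405 (minus strand), Per1 (the first of 2 entries) at chr11:69098699-69098998 (plus strand) and Otud1 at chr2:19657481-19657780 (plus strand).
Dusp1: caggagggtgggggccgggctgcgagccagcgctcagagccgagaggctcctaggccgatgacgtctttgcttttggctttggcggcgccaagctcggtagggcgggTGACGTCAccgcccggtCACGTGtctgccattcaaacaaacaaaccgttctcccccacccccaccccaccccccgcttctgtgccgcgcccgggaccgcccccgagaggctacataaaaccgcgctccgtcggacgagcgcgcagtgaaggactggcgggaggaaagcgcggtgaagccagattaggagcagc
Btg2: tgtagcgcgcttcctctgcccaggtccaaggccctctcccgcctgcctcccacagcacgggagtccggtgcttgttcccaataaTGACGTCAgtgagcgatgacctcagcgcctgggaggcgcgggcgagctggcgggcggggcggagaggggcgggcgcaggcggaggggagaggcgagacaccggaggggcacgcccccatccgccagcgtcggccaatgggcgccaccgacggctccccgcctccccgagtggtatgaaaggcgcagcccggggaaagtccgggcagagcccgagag
Per1: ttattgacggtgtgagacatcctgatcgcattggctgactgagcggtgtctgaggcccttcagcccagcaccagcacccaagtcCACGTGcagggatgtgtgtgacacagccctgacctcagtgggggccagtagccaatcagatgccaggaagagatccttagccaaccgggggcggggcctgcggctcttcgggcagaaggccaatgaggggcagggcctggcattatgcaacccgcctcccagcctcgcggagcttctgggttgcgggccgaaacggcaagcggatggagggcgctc
Otud1: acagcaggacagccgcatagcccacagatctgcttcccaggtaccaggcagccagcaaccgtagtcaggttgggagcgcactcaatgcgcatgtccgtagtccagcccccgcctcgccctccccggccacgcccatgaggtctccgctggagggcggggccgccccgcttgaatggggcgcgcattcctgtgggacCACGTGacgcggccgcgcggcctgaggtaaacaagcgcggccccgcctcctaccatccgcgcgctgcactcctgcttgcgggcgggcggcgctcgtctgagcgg

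The TGACGTCA element, to which CREB-family factors bind, was present in 1.79% of 32851 mouse promoter windows of this length, and the CACGTG E-box, the letters bound by CLOCK and BMAL1 among others, in 7.15%. Dusp1 carried 1 of each, Btg2 a cAMP response element, and Per1 and Otud1 an E-box each. Nr4a1 and Ddit4, also highest in replicate 5, held neither, while Gadd45g (CACGTG) and the third entry of Slc25a25 (TGACGTCA), not shown, held 1 each. Of the 11 genes that rose with Fos, 10 had a promoter in the table, of which 2 (Dusp1 and Btg2) held TGACGTCA in any entry and 3 (Dusp1, Otud1 and Slc20a1) held CACGTG. Of the 9 genes in the covarying groups highest in replicate 5, 7 had a promoter, of which 1 (Slc25a25) held TGACGTCA and 2 (Otud1 and Per1) held CACGTG. Among the 7637 tested genes with a promoter, 3.86% held TGACGTCA and 12.1% held CACGTG in any entry. The D-box TTATGTAA, bound by DBP and its relatives, was in 0.681% of these genes, and the window of Per3, a clock gene, held 2 copies. These matches describe letters and are not evidence that a factor was bound.

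Very few genes carried most of the RNA. Of all genes in the table, 12737 had a mean of at least 1 CPM, 6058 at least 10 CPM, 988 at least 100 CPM and 85 at least 1000 CPM, and the last class alone held 55.9% to 62.9% of the counts of a sample. It took a median of 34 genes (range 16 to 41) to reach 50% of counts and 2521 genes (2043 to 2705) to reach 90%. The low ends of both ranges were replicate 11. The 100 most abundant genes of a sample held 59.1 ± 1.92% (SD, n = 11) of its counts and the 1000 most abundant 81.2 ± 1.07%. Protein-coding genes held 80.8% to 86.2% of counts and the mitochondrial genome 1.82% to 3.37%.

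**Figure D1:**
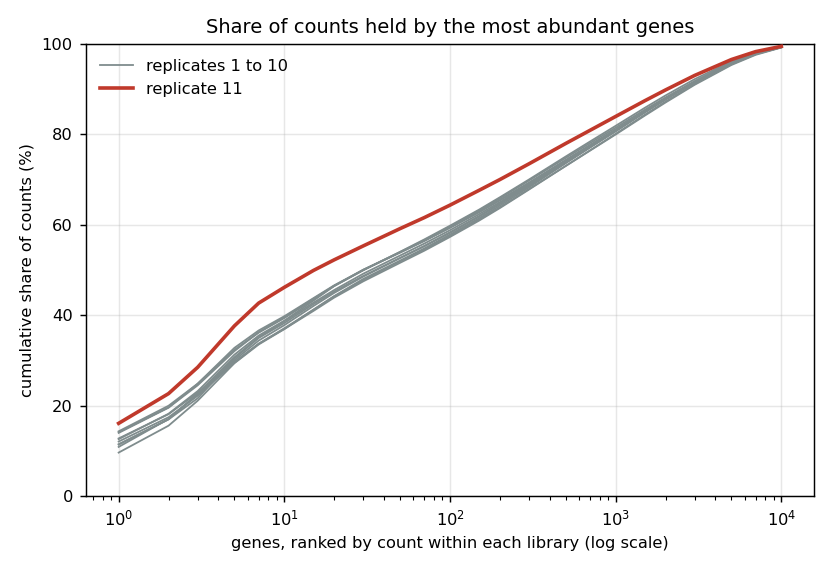
Cumulative share of counts (%, vertical axis) held by genes ranked by count within each library (horizontal axis, log scale), 1 line per sample. Replicate 11 runs above the other 10 lines and reaches 46.2% at 10 genes.

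The most abundant feature was Gm42418, an annotated non-coding gene that overlaps ribosomal RNA sequence. It ranged from 93392 CPM in replicate 3 over a median of 120147 to 187947 CPM in replicate 11. As a share of counts it took 9.62% to 16.1%. Gm42418 overlaps AY036118 and CT010467.1, and AY036118 itself had 0 counts. The next 8 genes served contraction, relaxation, energy supply or the cytoskeleton of muscle fibres, and several of them were of the fast type. Tnnc2, the calcium-binding troponin C of fast muscle, had 57330 ± 7155 CPM (SD, n = 11) and Acta1, the actin of the thin filament, 51841 ± 6599 CPM. Tnni2, the inhibitory subunit of fast troponin, followed at 40216 ± 4969 CPM and Myh4, the type 2B myosin heavy chain, at 39284 ± 6326 CPM. Ckm, the muscle creatine kinase that regenerates ATP from phosphocreatine, had 27559 ± 3822 CPM. Pvalb, the calcium buffer that speeds relaxation, had 15060 ± 2253 CPM, Mylpf, the fast regulatory light chain, 13344 ± 1773 CPM and Des, the intermediate filament desmin, 9925 ± 1018 CPM. Replicate 11 was the highest sample for 14 of the 20 most abundant genes and the lowest for 5.

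The remaining genes of the first 20 served energy supply or the sarcomere. The mitochondrial genome gave mt-Cytb (a subunit of complex III, 9540 ± 1267 CPM), mt-Nd1 (a subunit of complex I, 5745 ± 746 CPM) and the 16S ribosomal RNA mt-Rnr2 (5222 ± 926 CPM). Slc25a4, the ADP and ATP exchanger of the inner membrane, had 9227 ± 809 CPM and Mb, the oxygen store myoglobin, 7126 ± 858 CPM. Eno3, the muscle enolase of glycolysis, stood at 7705 ± 841 CPM. The titin cap Tcap had 8420 ± 1105 CPM, the tropomyosins Tpm1 and Tpm2 had 8396 ± 697 and 5385 ± 650 CPM, fast troponin T Tnnt3 had 7957 ± 962 CPM and titin itself, Ttn, 5091 ± 713 CPM. Of these 20 genes, 9 overlap another annotated gene (Tnnc2 overlaps Ube2c, Tnnt3 overlaps Prr33 and Mb overlaps Apol6, for example), and since the use of strand in counting is not given in the sources used here, their counts may include reads of the partner.

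Added up by function, the 40 contractile genes listed took a median of 26.9% of all counts (24.7% to 29.8%). The 86 nuclear genes of oxidative phosphorylation, which build the respiratory chain and ATP synthase, took 5.53% (4.84% to 5.77%), the 8 genes of the energy buffer 3.09% (2.75% to 3.55%) and the mitochondrial genome 3.02%. Glycolysis and glycogen genes took 2.64% (2.42% to 2.85%), calcium handling genes 2.38% (2.13% to 2.68%), 79 ribosomal protein genes 1.46% (1.40% to 1.63%), proteasome genes 0.504% (0.459% to 0.517%) and 44 collagen genes 0.0340% (0.0255% to 0.0398%). As shares of counts, replicate 11 was the highest sample for contractile, glycolytic, calcium handling and energy buffer genes, and the lowest for the mitochondrial genome, nuclear oxidative phosphorylation and proteasome genes. On the TMM scale the last 2 differed, since replicate 11 then had the highest proteasome sum (5361 CPM) and lay within the range of the others for oxidative phosphorylation (56534 CPM against 51590 to 57141). Without it the contractile share of counts ran from 24.7% to 28.3% and the mitochondrial genome share from 2.56% to 3.37%. As a summed CPM, nuclear oxidative phosphorylation was among the most even quantities measured, with a coefficient of variation (CV, the SD as a percent of the mean) of 3.19% over the 11 samples, against 11.4% for the mitochondrial genome.

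Myosin transcripts placed these muscles far on the fast side. Of the summed Myh4, Myh2, Myh1 and Myh7 signal, Myh4 made up 87.0 ± 2.44% (SD, n = 11), Myh2 9.01 ± 1.72%, Myh1 3.94 ± 0.979% and Myh7 0.0282 ± 0.0135%. These are shares of RNA, and in whole muscle fewer fibres of a type and less RNA per fibre cannot be told apart. Myh4 ranged from 30435 CPM in replicate 1 over a median of 38159 to 54960 CPM in replicate 11, and the highest of the other 10 samples was 45577 CPM. Myh2 ranged from 3099 CPM in replicate 11 over 3901 to 4919 CPM in replicate 3. Myh1 ranged from 1265 CPM, again in replicate 11, over 1734 to 2111 CPM in replicate 5. The lowest Myh4 value lay above the highest Myh2 value, and the lowest Myh2 value above the highest Myh1 value, so the order of the 3 fast myosins was the same in all 11 samples. Replicate 11 had the highest Myh4 share (92.6%) and the lowest Myh2 (5.22%) and Myh1 (2.13%) shares.

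Myh7, the slow myosin, ranged from 3.55 CPM in replicate 7 over 11.6 to 20.1 CPM in replicate 2 (13 to 80 counts). The developmental and specialised myosins were also low. Myh14, a non-muscle heavy chain, had 48.2 ± 9.24 CPM (SD, n = 11), Myh13 8.39 ± 2.15 CPM, the perinatal Myh8 6.49 ± 2.06 CPM and the embryonic Myh3 4.87 ± 1.93 CPM. Myh6 (0 to 6 counts) and Myh15 (0 or 1 count) did not pass the filter of a mean of 10 counts. Myl4, the embryonic light chain, had 8.95 ± 2.37 CPM.

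Other pairs of fast and slow isoforms differed in the same direction in every sample. The median ratio of the fast to the slow member was 12433 for troponin C (Tnnc2 to Tnnc1, range 7085 to 37845) and 9430 for troponin I (Tnni2 to Tnni1, 5007 to 28794). Where these ratios were highest, Tnnc1 and Tnni1 lay little above the floor of 3 counts, so the upper ends include counting error. The median ratio was 129 for troponin T (Tnnt3 to Tnnt1, 78.9 to 295) and 133 for the regulatory light chains (Mylpf to Myl2, 86.0 to 347). It was 74.8 for the calcium pumps (Atp2a1 to Atp2a2, 46.4 to 104) and 60.8 for the calsequestrins (Casq1 to Casq2, 44.5 to 129). The calsarcins were the exception, with a Myoz1 to Myoz2 ratio of 3.93 (3.35 to 14.8), and the slow light chain Myl3 stood at 334 ± 81.3 CPM. Without replicate 11, the highest ratio was 165 for Mylpf to Myl2 and 5.90 for Myoz1 to Myoz2. The type 2B companions of Myh4 were all abundant, with Actn3 (the fast isoform of alpha-actinin) at 2466 ± 542 CPM and Mybpc2 (the fast myosin-binding protein C) at 1546 ± 256 CPM. Myl1 had 3728 ± 397 CPM, Atp2a1 2409 ± 206 CPM, Myoz1 1172 ± 182 CPM and Casq1 1046 ± 107 CPM, while Myoz3 had 0 to 5 counts.

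**Figure D2:**
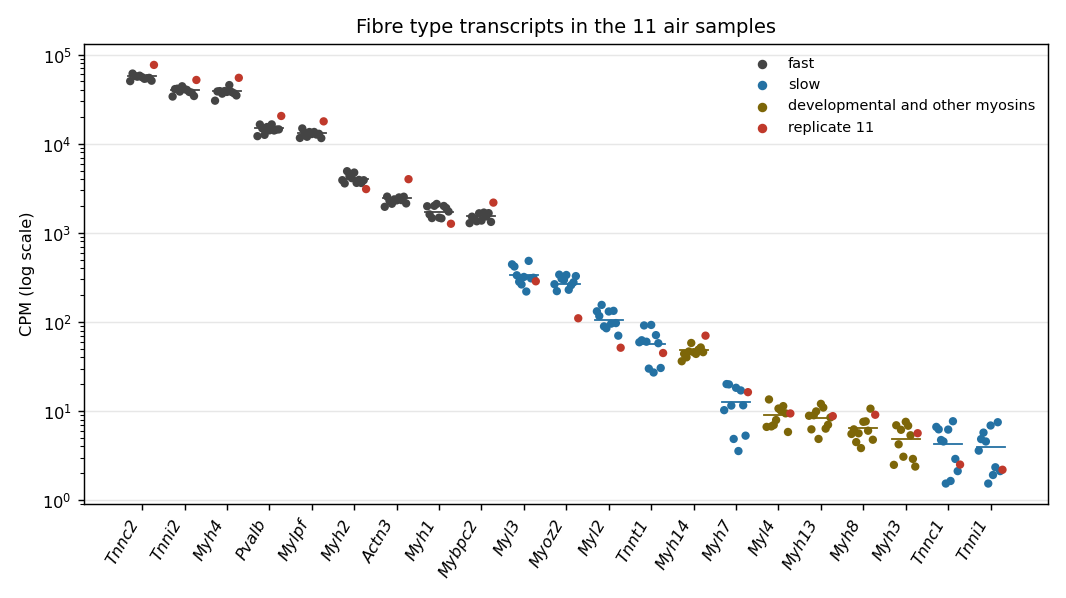
CPM (vertical axis, log scale) of fibre type transcripts in each of the 11 samples, 1 point per sample in replicate order and a line at the mean. Replicate 11 (red) is highest for Myh4 at 54960 CPM and lowest for Myh2, Myh1, Myl2 and Myoz2.

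Evenness between samples was tested gene by gene. A gene was called for excess variability where its spread over the 11 samples was larger than that of genes of like abundance (edgeR quasi-dispersion against its trend, Benjamini-Hochberg adjusted p under 0.05). Of 10042 genes, 74 were called, which is 0.737%, and 631 passed at an unadjusted p under 0.05. The slow fibre list held 3 of them among 10 tested members, Tnnt1, Myl2 and Myoz2, and 7 of the 10 passed at the unadjusted p. Tnnt1, slow troponin T, ranged from 27.1 CPM in replicate 7 over 59.1 to 92.5 CPM in replicate 6 (edgeR, adjusted p = 0.0102). Replicates 5, 7 and 10 were low for both Tnnt1 and Myh7. Myl2, the slow regulatory light chain, ranged from 51.3 CPM in replicate 11 over 97.1 to 155 CPM in replicate 3 (adjusted p = 0.0445), and Myoz2 from 110 CPM in replicate 11 over 278 to 339 CPM in replicate 3 (adjusted p = 0.0415). Without replicate 11, the Myoz2 call was lost (edgeR, adjusted p = 0.526), while Tnnt1 (0.000253) and Myl2 (0.0290) stayed called, and Myh7 (0.0110) and Myl3 (0.00565) were called too.

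By function, edgeR called 4 of 40 contractile genes (Tnnt1 and Myl2 again, with Mybph and Lmod2, and 12 at the unadjusted p), 1 of 26 glycolysis and glycogen genes (Pgk1, 7 at the unadjusted p) and 1 of 17 genes of the mitochondrial genome (mt-Nd3, 8 at the unadjusted p). Without replicate 11 these stayed called, with Myh7 and Myl3 added to the contractile genes and the hexokinase Hk2 to the glycolytic ones. Without its own highest sample, each of Myl2 (edgeR, adjusted p = 0.132), Mybph (0.202), Lmod2 (0.119) and Pgk1 (0.0780) lost its call. With all 11 samples, edgeR called 0 of 19 calcium handling genes (5 at the unadjusted p) and 0 of 8 energy buffer genes (0). It also called 0 of 76 ribosomal protein genes (4), 0 of 36 proteasome genes (1) and 0 of 23 collagen genes (2). Over all genes, 0.737% were called and 631 of 10042 passed at the unadjusted p. For lists of this size, 0 calls is near that share. None of the 4 type 2B genes, the 9 tested general fast genes, Myh2 or Myh1 was called by edgeR, and Actn3 and Myh1 passed at an unadjusted p under 0.05. The muscle identity list, 10 of 10 members measured, was likewise without a call (1 at the unadjusted p, the regulatory factor Myf6). It included the myogenic factor Myod1 (16.7 ± 2.91 CPM) and Mef2c (574 ± 69.8 CPM), which were present in every sample. Transcripts of heart and liver were at or near 0. Nppa, Nppb and Apoa1 had no count in any sample, where 3 counts would correspond to at most 1.05 CPM, and the summed heart markers (Nppa, Nppb, Myl7, Tnni3 and Ryr2) did not exceed 2.74 CPM in any sample. The 5 liver markers summed to at most 1.66 CPM.

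Cells outside the fibres, and the neuromuscular junction, were measured through 12 lists of marker genes. Several of these genes, such as Car3 among the fat markers and Gsn among the fibroblast markers, are expressed by muscle fibres too. The 12 markers of capillary endothelium summed to 421 to 547 CPM (CV 6.95%), led by the vascular growth factor receptors Flt1 (121 ± 18.2 CPM) and Kdr (110 ± 18.9 CPM) and the adhesion molecule Esam (48.0 ± 6.70 CPM), and 0 were called by edgeR, where the share over all genes was 0.737%. Cdh5 (20.7 to 41.5 CPM) and Kdr (65.0 to 138 CPM) passed at an unadjusted p under 0.05, 2 of 12 against 631 of 10042 genes. Pericyte and smooth muscle markers summed to 531 to 788 CPM, of which Rgs5 alone gave 516 ± 64.8 CPM. Fibroblast markers other than Gsn (1916 ± 186 CPM) were modest, with the proteoglycan Dcn at 193 ± 29.7 CPM and the collagen Col1a1 at 37.0 ± 8.56 CPM. The fibroblast and mural lists also had 0 calls, and none of their members passed at the unadjusted p.

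Resident immune cells were sparse but detectable. Macrophage markers summed to 107 to 170 CPM, with the lysozyme Lyz2 at 63.9 ± 11.5 CPM and the complement gene C1qa at 31.7 ± 5.09 CPM, and none of the 8 tested members was called or passed the unadjusted p. Satellite cell markers summed to 41.2 to 54.8 CPM (CV 8.42%), of which Cdh15 gave 31.9 ± 3.47 CPM and Pax7, the transcription factor that defines these stem cells, 4.10 ± 1.55 CPM. Genes of the neuromuscular junction summed to 28.7 to 41.2 CPM. The adult acetylcholine receptor subunit Chrne had 13.7 ± 3.41 CPM, while the fetal subunit Chrng had 4 counts over all 11 samples. Neither list had a call or a member past the unadjusted p (edgeR), where 0.737% of all genes were called.

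**Figure D3:**
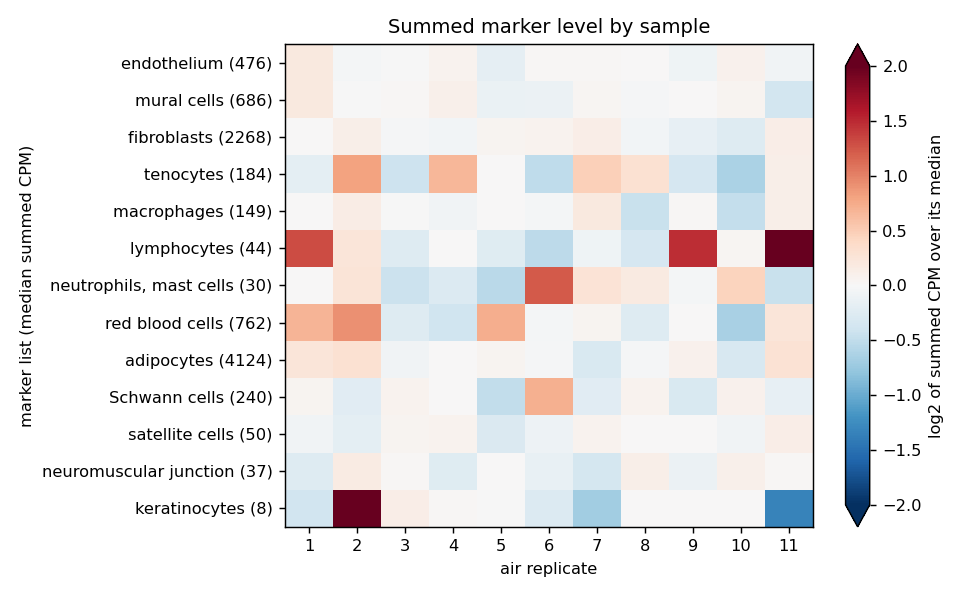
Log2 of the summed CPM of each marker list in a sample over the median of that list (colour, clipped at both ends), with replicates in columns and lists in rows, and the median summed CPM in brackets. The keratinocyte row is high in replicate 2, lymphocytes in replicates 1, 9 and 11, neutrophils with mast cells and Schwann cells in replicate 6 and red blood cells in replicates 1, 2 and 5.

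The summed level of other lists was highest in replicate 2 for red cell, fat, tendon and keratinocyte markers, and in replicate 6 for Schwann cell markers and for the joint list of neutrophils and mast cells. Red cell genes were high in 3 samples. Hbb-bs, an adult beta-globin, ranged from 180 CPM in replicate 10 over 315 to 673 CPM in replicate 2, with replicates 5 (591) and 1 (519) next and 379 CPM at most in the others (edgeR excess variability, adjusted p = 0.00230). Hbb-bt (94.9 to 315 CPM, adjusted p = 0.00332) and the alpha-globin Hba-a2 (44.7 to 105 CPM, adjusted p = 0.0274, 0.0583 without replicate 5) were also called. Hba-a1 (158 to 319 CPM) and Alas2, the heme synthesis enzyme of red cells (5.29 to 24.9 CPM), were not, though Hba-a1 was without replicate 11 (adjusted p = 0.00729). The globins have near-identical copies, so reads may be split between them, and their sum is firmer than any single value. The 7 red cell markers together ran from 487 to 1440 CPM with a median of 762.

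Fat cell markers did not share 1 high replicate. Their sum, most of it Car3, was highest in replicate 2 (5099 CPM), followed by replicates 11 (5029) and 1 (4872), with 3295 CPM at the lowest. Several members were highest in replicate 1. Plin1, the coat protein of lipid droplets, ranged from 20.6 CPM over 27.6 to 92.0 CPM there, 2.10 times the next sample (edgeR excess variability, adjusted p = 0.00714, 0.865 without that replicate). Lep, the adipocyte hormone leptin, ran from 0.529 over 3.84 to 23.5 CPM and Cidec, a lipid droplet protein, from 20.6 over 38.1 to 86.8 CPM, both also highest in replicate 1. Cfd, the complement factor adipsin, differed from these in being highest in replicate 11 (1255 CPM, range 576 to 1255, adjusted p = 0.0408, 0.00257 without replicate 11), and it was called in only 4 of the 11 fits that left out 1 sample. Fabp4, a fatty acid carrier of fat and capillary cells, stood at 1236 CPM in replicate 1 against 271 to 695 CPM elsewhere. The brown fat gene Ucp1 had no count in any sample.

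A myelin transcript was highest in replicate 6. Mbp, the myelin basic protein, ranged from 30.1 over 43.4 to 104 CPM there (edgeR excess variability, adjusted p = 0.0423, 0.925 without it). The same replicate 6 carried the neutrophil proteins S100a8 (29.9 CPM against 2.81 to 7.41 elsewhere) and S100a9 (25.4 CPM against 1.53 to 6.57), both called (edgeR, adjusted p = 0.0285 and 0.0316) and neither without replicate 6 (0.994 for each). Further neutrophil markers were near 0, with 2 counts of Ly6g and 5 of Retnlg over all samples. Kit, the mast cell receptor on the same list, did not follow, with its lowest value in replicate 6 (11.3 CPM, range 11.3 to 22.5).

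Ighm, the constant region of immunoglobulin M, was among the most uneven genes (edgeR excess variability, adjusted p = 0.000162, and 1.25e-05 without replicate 11). It ranged from 27.9 CPM in replicate 6 over 41.5 to 171 CPM in replicate 11, with replicates 9 (120) and 1 (107) also above all others (at most 50.8). The other lymphocyte markers listed were low. The light chain Igkc was also highest in replicate 11, at 14 counts (4.38 CPM), against 1.93 CPM at most elsewhere, and the T cell gene Cd3e was at 0 in every sample.

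Of the 4 tested tendon markers, 1 (Fmod) was called by edgeR and 3 passed at the unadjusted p. The shares over all genes were 0.737% and 631 of 10042. These tendon markers did not share 1 order of samples. Fmod, a proteoglycan of tendon, ranged from 59.2 CPM in replicate 10 over 120 to 228.98 CPM in replicate 2, with replicate 4 at 209 CPM (edgeR, adjusted p = 0.00140, 0.00389 without replicate 2). Tnmd, a marker of tendon cells, ran from 7.41 to 27.7 CPM, highest also in replicate 2, and was not called over all samples (adjusted p = 0.0495 without replicate 11). Scx, a transcription factor of tendon, ran from 18.04 CPM in replicate 7 to 34.0 CPM in replicate 9, and Thbs4, a thrombospondin of the matrix, from 9.08 CPM in replicate 11 to 37.7 CPM in replicate 7. Cyp26b1, the enzyme that degrades retinoic acid, was the second of all genes by p (edgeR excess variability, adjusted p = 0.000120). It was at 3.87 CPM in replicate 1 and at 97.9 and 95.4 CPM in replicates 2 and 9, with 15.7 to 51.7 CPM in the other 8. It stayed called in all 11 fits that left out 1 sample.

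Epidermal keratins were highest in replicate 2. Krt15, a keratin of basal keratinocytes, had 120 of its 127 counts there (94.5%) and stood at 41.5 CPM, against at most 0.688 CPM in any other sample. Krt14 had 59 of 64 counts and Krt5 31 of 33 counts in the same sample, and all 19 counts of Lor, a protein of the cornified layer, lay there. Krt10, of the upper layers, was at 35.6 CPM in replicate 2 against 1.88 to 7.93 CPM elsewhere. Krt15 and Fam25c (51.9 CPM in replicate 2, at most 7.51 elsewhere) were both among the 4 genes of smallest p (edgeR excess variability, adjusted p = 0.000120 and 0.000162), and both fell under the count filter when replicate 2 was left out. The 6 keratinocyte markers together gave 81.6 CPM in replicate 2 against 3.13 to 8.71 CPM in the rest.

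Across all genes the median CV was 20.4% (quartiles 14.1% and 28.9%) and the common biological coefficient of variation 15.1%. Among the 988 genes at or above 100 CPM the median CV was 10.8%, and 424 had a CV of at most 10%. The 5 most even of these were Surf4, a cargo receptor of the early secretory pathway (109 CPM, CV 2.81%), Ctnnb1, which encodes beta-catenin (252.2 CPM, 3.22%), the lysosomal membrane protein Lamp1 (544 CPM, 3.25%), the ubiquitin protease Usp47 (316 CPM, 3.36%) and Cox6c, a nuclear subunit of cytochrome c oxidase (2010 CPM, 3.49%). Surf4 varied between 104 and 113 CPM over all 11 samples. The CV that counting alone would give was 5.15% for Surf4 and 3.38% for Ctnnb1, above the observed values, so their place at the low end is within counting noise. The 74 called genes had a median CV of 43.7% (24.7% to 315%).

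**Figure D4:**
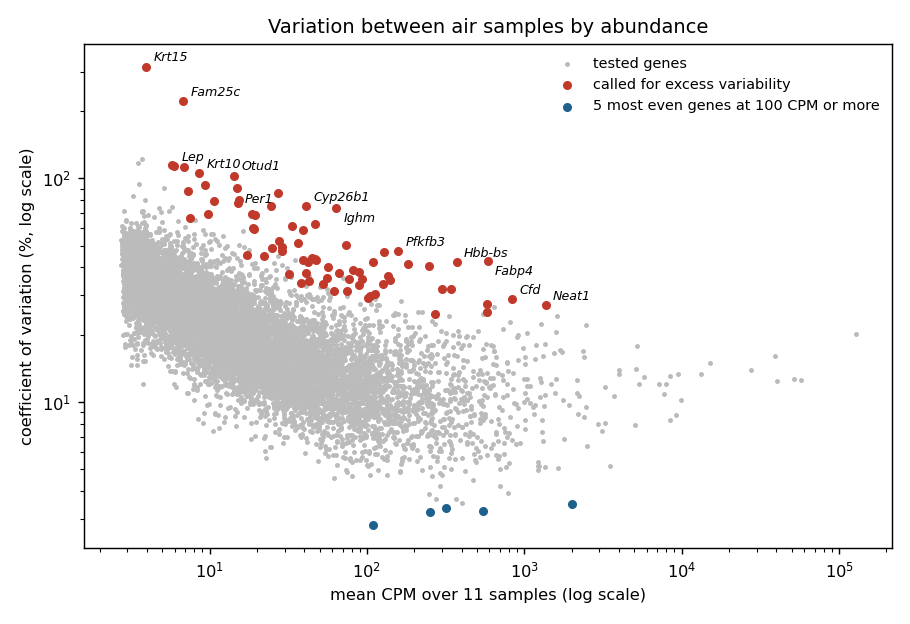
CV (%, vertical axis, log scale) against mean CPM (horizontal axis, log scale) of the 10042 tested genes, with the 74 genes called for excess variability in red and the 5 most even genes of at least 100 CPM in blue. Krt15 lies highest, with a CV of 315%.

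How far a call rested on 1 library varied. When each called gene was tested again without its own highest sample, 35 of the 74 stayed called, 37 did not and 2 (Krt15 and Fam25c) fell under the filter. Without replicate 11, 64 of the 74 stayed called among 108 calls in all, and 29 of the 74 were called in every one of the 11 fits that left out 1 sample. Replicate 11 was the lowest sample for 34 of the 74, and replicates 5 and 10 were each the highest for 16. Of the 74, 28 overlap another annotated gene (Slc25a25 overlaps Naif1 and Depp1 overlaps Rassf4, for example), which leaves their counts uncertain in the same way as above.

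Many called genes correlated with another. Joining called genes whose log2 CPM correlated at r of at least 0.85 gave 8 groups that took in 53 of the 74, through 255 of 2701 pairs. A gene joined a group through any 1 member, so other pairs within a group could correlate less, down to r = 0.18 in the largest group. These correlations chose the groups and are a description over 11 samples, with no test. The largest group had 28 genes, all lowest in replicate 11, at a median of 0.314 times each gene's median, and 16 of them highest in replicate 10. Without replicate 11, 20 of the 28 stayed called and 8 did not. Its most abundant members were Fabp4, Usmg5 (a small subunit of ATP synthase), Cox7c and Ndufa1 (subunits of respiratory complexes IV and I), the slow calsarcin Myoz2 and Gnas, which encodes the stimulatory G protein. Ndufa1 ranged from 105 CPM in replicate 11 over 309 to 440 CPM in replicate 10 (edgeR excess variability, adjusted p = 0.00484, 0.00667 without replicate 11). Cox7c ran from 118 CPM in replicate 11 over 352 to 475 CPM in replicates 1 and 10. Of the 81 tested members of the nuclear oxidative phosphorylation list, which does not hold Usmg5 (edgeR, adjusted p = 0.0170, 0.0247 without replicate 11), Ndufa1 and Cox7c were called and 11 passed at the unadjusted p. The shares over all genes were 0.737% called and 631 of 10042 at the unadjusted p. Without replicate 11 both Ndufa1 and Cox7c stayed called, and Sdhd (edgeR, adjusted p = 0.0333) and Atp5j (0.0184) were called too.

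The same group held genes that replicate 2 and replicate 6 also had low. Its median level relative to each gene's median was 0.670 in replicate 2, 0.737 in replicate 6, 1.42 in replicate 9 and 1.505 in replicate 10. Pdlim5, a scaffold of the sarcomere's Z-disc, ran from 42.0 CPM in replicate 11 over 139 to 212 CPM in replicate 9 (edgeR, adjusted p = 0.00332, 0.00281 without replicate 11). Yipf7 ran from 22.9 over 92.3 to 141 CPM (adjusted p = 0.00332, 0.00695 without replicate 11). mt-Nd3, a complex I subunit of the mitochondrial genome, had the highest CV of the group (79.1%), from 0.939 CPM in replicate 11 over 9.68 to 25.1 CPM in replicate 9. Net1 ran from 1 count in replicate 11, under the floor of 3 counts, to 16.4 CPM in replicate 9 (CV 66.3%, adjusted p = 0.0443, 0.0787 without replicate 11). The other 16 tested mitochondrial genes were not called, and mt-Cytb ran only from 6629 to 10854 CPM.

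Another group of 7 genes was highest in replicate 6 for every member and included Mbp, Nefm (a neurofilament of axons), Aldoc (an aldolase of glia and neurons), Lrrc17, S100a8 and S100a9. Their median in replicate 6 was 3.19 times each gene's median. Nefm stood at 87.0 CPM there against 22.2 to 47.6 CPM elsewhere, and Lrrc17 at 132 CPM against 27.0 to 55.8 CPM. Without replicate 6 none of these named genes stayed called (edgeR, adjusted p from 0.459 to 0.994).

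**Figure D5:**
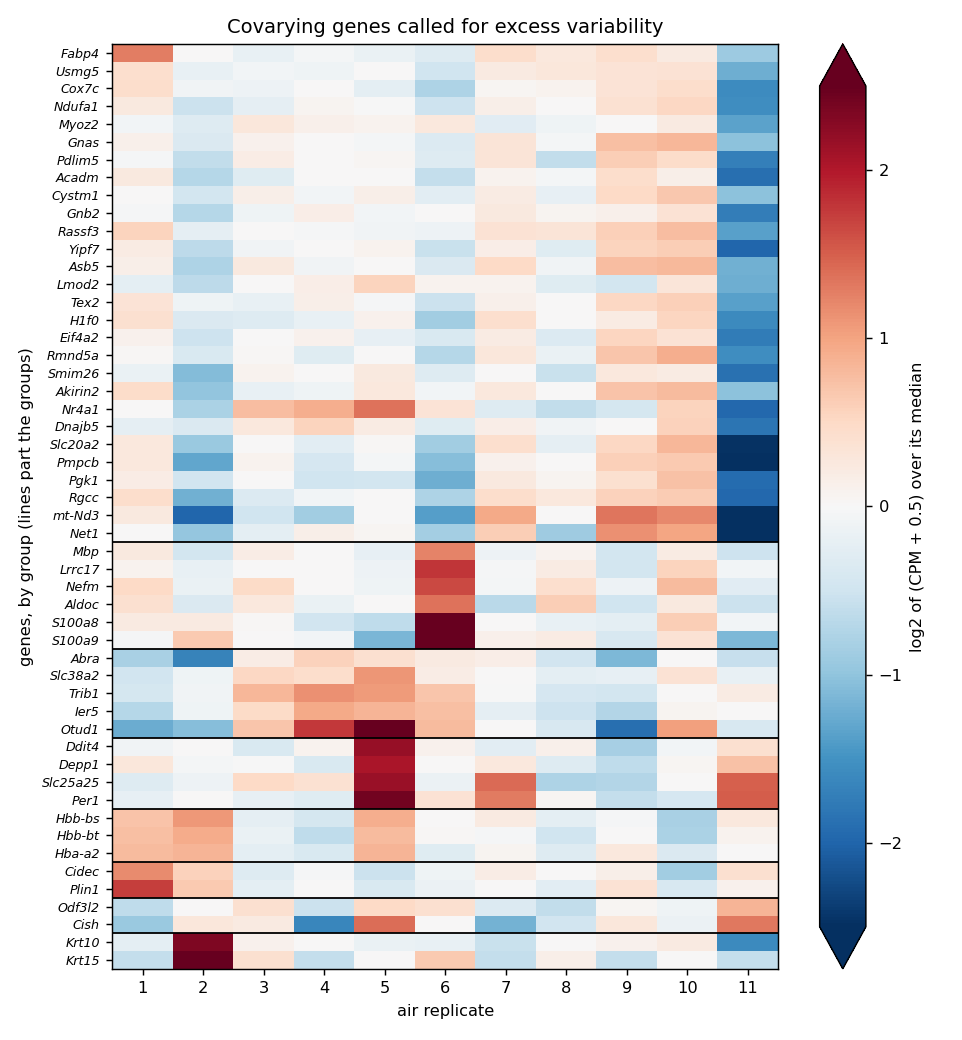
Log2 of CPM + 0.5 over the median of each gene (colour, clipped at both ends) for genes of the 8 covarying groups (1 member not drawn), with replicates in columns. The first group of 28 is lowest in replicate 11, and the second is highest in replicate 6.

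A further pair of groups was high in replicate 5. In one of them, Abra (an activator of serum response factor signalling in muscle), Slc38a2 (an amino acid transporter), Trib1, Ier5 and Otud1 were high in replicates 4 and 5 and low in replicates 1 and 9. Otud1, a deubiquitinase, ranged from 1.93 CPM in replicate 9 over 8.48 to 51.4 CPM in replicate 5, with replicate 4 at 29.98 CPM (edgeR excess variability, adjusted p = 0.000529, 0.00533 without replicate 5). Without its own highest sample, Abra also stayed called (edgeR, adjusted p = 0.00619), while Trib1 (0.0512), Ier5 (0.0593) and Slc38a2 (0.439) did not. In the other, Ddit4 (an inhibitor of mTORC1 signalling), Depp1, Slc25a25 (a mitochondrial ATP carrier) and the clock gene Per1 peaked in replicate 5 at a median of 4.63 times each gene's median, with 2.31 times in replicate 11 and 1.88 times in replicate 7. Per1 ranged from 5.80 CPM in replicate 9 over 8.99 to 50.1 CPM in replicate 5, with 26.6 and 23.0 CPM in replicates 11 and 7 (adjusted p = 0.00271, 0.0741 without replicate 5). Ddit4 reached 96.9 CPM in replicate 5 and at most 27.9 CPM elsewhere, and its call was lost without that sample (edgeR, adjusted p = 0.990). Depp1 lost its call without replicate 5 too (edgeR, adjusted p = 0.887), while Slc25a25 kept it (0.0352). The smaller groups were Hbb-bs with Hbb-bt and Hba-a2, Cidec with Plin1, Odf3l2 with Cish, and Krt10 with Krt15.

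Immediate-early and clock genes differed in which replicate was high. Of the 13 immediate-early genes tested, 3 were called (Egr1, Nr4a1 and Nr4a3) and 8 passed at the unadjusted p, where 0.737% of all genes were called and 631 of 10042 passed at the unadjusted p. Without replicate 11 these 3 stayed called, and Fos, Jun, Atf3 and Klf4 were called too. Nr4a1, a nuclear receptor induced by contraction, ranged from 8.14 CPM in replicate 11 over 33.2 to 86.2 CPM in replicate 5 (edgeR, adjusted p = 0.00140). Fos, a subunit of the AP-1 transcription factor, ran from 0.626 over 2.00 to 15.1 CPM, and Klf4 from 9.26 over 14.9 to 43.2 CPM, both highest in replicate 5. The lowest Fos value, in replicate 11, lay under the floor of 3 counts, so the marker fits on Fos rest on low counts. The other 2 called genes were not high in replicate 5. Egr1 had its highest value of 42.3 CPM in replicate 1 and 16.1 CPM in replicate 5 (edgeR, adjusted p = 0.00890, 0.0581 without replicate 1), and Nr4a3 had 23.6 CPM in replicate 4 and 5.11 CPM in replicate 5 (adjusted p = 0.0102, 0.144 without replicate 4). Of the 15 tested clock genes, Per1 alone was called, with 7 at the unadjusted p. Dbp, a clock output factor, was highest in replicate 5 (39.4 CPM, range 14.2 to 39.4), where the clock repressor Nr1d1 was lowest (3.32 CPM against 13.1 to 22.1 CPM elsewhere). Arntl, which encodes BMAL1, ran from 3.01 CPM to 12.2 and 15.7 CPM in replicates 10 and 9.

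A pair of metabolic genes was low in replicate 5 and high in replicate 11. Pfkfb3, the enzyme that makes the main activator of glycolysis, ran from 57.8 CPM in replicate 5 over 140 to 330 CPM in replicate 11 (edgeR excess variability, adjusted p = 0.00140, 7.33e-05 without replicate 11). Nmrk2, a muscle kinase of NAD synthesis, ran from 96.2 CPM in replicate 5 over 224 to 481 CPM in replicate 11 (adjusted p = 0.00301, 0.000213 without replicate 11). Gadd45g (37.5 to 149 CPM) and Cish (5.09 to 45.3 CPM) were high in both replicates. Of 8 tested genes of fasting and fatty acid use, 0 were called by edgeR and 2 passed at the unadjusted p. The shares over all genes were 0.737% and 631 of 10042. The 2 that passed at the unadjusted p were the muscle ubiquitin ligases Fbxo32 (408 to 746 CPM) and Trim63 (129 to 260 CPM), both highest in replicate 5. Without replicate 11 both were called (edgeR, adjusted p = 0.0476 and 0.0238). Over all 11 samples, 0 of 8 heat shock genes (3 at the unadjusted p) and 0 of 3 metallothionein genes (0 at the unadjusted p) were called, and without replicate 11 the heat shock gene Hspa1a was (adjusted p = 0.00979).

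Which genes move with a given marker was asked by fitting every gene on the marker's log2 CPM, in units of its SD over the 11 samples (edgeR quasi-likelihood, Benjamini-Hochberg over 10041 genes). Myh7 had 1 gene rising with it (0.00996% of genes) and none falling, against 939 at an unadjusted p under 0.05. The gene was Tnnt1, with a slope of 0.57 log2 units per SD (SE 0.077, adjusted p = 0.00186). With Myh2, 0 genes were called by edgeR, 744 passed at the unadjusted p and DESeq2 called 1. With Myh4, 99 genes rose (0.986%) and 68 fell (0.677%), and without replicate 11 there were 0. Leaving out replicate 7 gave 622. The rising genes included Actn3, Mybpc2 and Pvalb of the type 2B list, 5 of 9 general fast genes, 6 of 26 glycolysis and glycogen genes, 6 of 19 calcium handling genes and 8 of 76 ribosomal protein genes. Those of smallest p were Tmem233 (slope 0.28), Tmod4 (a cap of the thin filament, 0.25), Pgm1 (0.26) and Hras (0.29). App (−0.28), Ndufb3 (−0.28), mt-Nd6 (−0.29) and Txnip (−0.37) led the falling genes. Nuclear oxidative phosphorylation genes went both ways, with 7 of 81 falling and 4 rising.

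With Hbb-bs, 5 genes rose (0.0498%) and none fell. They were Hbb-bt (slope 0.57, SE 0.047, edgeR adjusted p = 5.57e-07), Hba-a2 (0.47), Hba-a1 (0.32), Alas2 (0.60) and Krt15, whose counts lay almost entirely in replicate 2. Leaving that sample out gave 2 calls. Adipoq, the hormone of fat cells (27.0 CPM in replicate 10 over 40.2 to 83.2 CPM in replicate 1), had 4 rising genes (0.0398%). They were Plin1 (slope 0.60, SE 0.063, adjusted p = 4.23e-05), Cidec (0.50), the glutamine transporter Slc1a5 (0.39) and Cebpa, a transcription factor of fat cell differentiation (0.42). Without replicate 1, where Adipoq was highest, none of these 4 stayed called (edgeR, adjusted p from 0.514 to 0.836) and 2 other genes were. Without replicate 11 there were 13 calls, these 4 among them.

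With Fos, 11 genes rose (0.11%) and 2 fell (0.0199%), and without replicate 5 there were 0. The rising genes were led by Nr4a1 (slope 0.71, SE 0.11, edgeR adjusted p = 0.00847), the phosphatase Dusp1 that switches off MAP kinases (0.38, SE 0.059, adjusted p = 0.00847), Otud1 (1.03, SE 0.16, adjusted p = 0.00973) and Slc38a2 (0.37). Of the 11 rising genes, Otud1, Ddit4 and Gm10800 were not called by DESeq2 (adjusted p = 0.0983, 0.310 and 0.176). Dusp1 itself ranged from 43.2 over 66.9 to 138 CPM in replicate 5 and Btg2, an antiproliferative gene, from 7.26 over 11.3 to 26.9 CPM, also in replicate 5. Pfkfb3 (slope −0.57) and the RNA polymerase II subunit Polr2i (−0.32) fell. Dbp had 1 rising gene (0.00996%), Per1 (slope 0.89, SE 0.13, adjusted p = 0.00839), and 0 without replicate 5.

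Pdk4, the kinase that shuts off pyruvate dehydrogenase in fasting (1.73 CPM in replicate 2 to 9.21 CPM in replicate 5), had 1 rising gene (0.00996%), Impact, and 5 falling ones (0.0498%), led by Krt15, Fam25c, Gimap1 and Sfn. Replicate 2, where Pdk4 was lowest, also held most counts of Krt15 and Fam25c. Without it 15 genes were called, of which 1 was among these 6, and without replicate 6 there were 59. Col1a1 and C1qa each had 1 rising gene, Krt15 (0.00996%), and 0 without replicate 2. Gm42418 had 0 called by edgeR, with 1265 at the unadjusted p and 61 by DESeq2, and 11 without replicate 3.

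Correlations between 24 pairs of marker genes were tested by permutation (100000 resamples, n = 11, Benjamini-Hochberg over the 24). Pearson's r passed for 7 pairs, and Spearman's rho for 5 of these. Myh7 and Tnnt1 correlated at r = 0.90 (permutation p = 0.00067, adjusted p = 0.00322) and rho = 0.85 (p = 0.00143, adjusted p = 0.00858), with r = 0.79 without replicates 5 and 7, the 2 farthest from the Myh7 median. Myh4 and Pvalb correlated at r = 0.91 (permutation p = 0.00038, adjusted p = 0.00304) and rho = 0.85 (p = 0.00142, adjusted p = 0.00858), and r was 0.65 without replicates 1 and 11. Hbb-bs and Hbb-bt correlated at r = 0.98 (permutation p = 1e-05, the smallest possible, adjusted p = 0.00024) and rho = 0.97 (p = 1e-05, adjusted p = 0.00024), with r = 0.96 without replicates 2 and 5. For Hbb-bs and Alas2, r was 0.87 (permutation p = 0.00057, adjusted p = 0.00322) and rho 0.87 (p = 0.001, adjusted p = 0.00858), and r stayed at 0.89 without those 2. For Adipoq and Plin1, r was 0.93 (permutation p = 0.00024, adjusted p = 0.00288) and rho 0.82 (p = 0.00355, adjusted p = 0.0170), with 0.80 without replicates 1 and 10.

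The other 2 pairs passed by r alone. Myh1 and Myh4 correlated at r = −0.72 (permutation p = 0.00694, adjusted p = 0.0278) and rho = −0.55 (p = 0.0872, adjusted p = 0.249), with r = −0.65 without replicates 5 and 11 and −0.52 without replicate 11. Adipoq and Cfd correlated at r = 0.70 (permutation p = 0.0123, adjusted p = 0.0423) and rho = 0.56 (p = 0.0771, adjusted p = 0.249), with r = 0.53 without replicates 1 and 10. The pairs of Myh2 with Myh4 and Myh7 with Myl2 passed by neither measure. For Myh2 and Myh4, r was −0.48 (permutation p = 0.131, adjusted p = 0.286) and rho −0.19 (p = 0.576, adjusted p = 0.864), with r = −0.15 without replicates 3 and 11 and −0.04 without replicate 11 alone. For Myh7 and Myl2, r was 0.39 (permutation p = 0.239, adjusted p = 0.441) and rho 0.54 (p = 0.0935, adjusted p = 0.249), with r = 0.43 without replicates 5 and 7 and 0.75 without replicate 11.

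A principal component analysis was made of log2 CPM over all 10042 genes. Component 1 held 24.3% of the variance and set replicate 11 (score 43.0) apart from the other samples (−18.5 to 13.4), and without that sample the first component held 17.6%. With replicate 11 included, the largest positive loadings were Fam25c, Ccdc78, Rabl2, Gm13573, Zan and Hba-x. These were genes of low level, with means from 3.54 to 10.1 CPM. Fam25c was highest in replicate 2 (51.9 CPM), against 7.51 CPM in replicate 11. The largest negative loadings were mt-Nd3, Net1, Mrps28, Apba3, Pmpcb and Yipf4. Mrps28, a protein of the mitochondrial ribosome, and Apba3 had no count in replicate 11 and reached 11.1 and 7.67 CPM in replicate 10. Component 2 held 12.4% and ran from replicate 2 (−22.6) to replicate 5 (22.6). Otud1, Atf3, Gm43430, Aph1a, Slc25a25 and Per2 loaded on its positive side and Krt15, Fam25c, Gm43435, Cyp2e1, Nr1d1 and Krt10 on its negative side. Atf3, a stress-induced transcription factor, ran from 0.346 CPM in replicate 2 to 14.6 CPM in replicate 5.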

How the data were processed

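The deposited table holds raw counts of reads per Ensembl gene, not normalised, for 47643 identifiers, and only its 11 air columns were used. Per the labels' protocols, the muscles were flash frozen and RNA was extracted with RNeasy and made into QuantSeq 3′ libraries, read on an Illumina HiSeq. Per the submitters' processing notes, STAR, DESeq2 and the mouse build mm9 were used, with no versions given, while the identifiers belong to a later annotation. Symbols and gene overlaps came from GENCODE M21 (GRCm38), which named 99.1% of identifiers, and no coordinate of the deposited data is printed.

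Genes with a mean of at least 10 counts were kept (10042). CPM values use TMM-scaled totals, and log2 values a prior count of 2. Excess variability was the edgeR quasi-dispersion set against its trended prior (upper F tail), and marker fits used the edgeR quasi-likelihood test, both with Benjamini-Hochberg adjustment at 0.05. No 2 of the 11 libraries agreed within sampling noise (chi-square per gene of 2.95 to 18.6 over the 55 pairs). In simulated counts for 10042 genes, the excess-variability test called 63 of 100 genes with a 10-fold dispersion, 14 of 100 with a 4-fold one and 2 of 9842 unchanged genes. The marker test called 83 of 100 genes at 0.6 log2 units per SD, 42 of 100 at 0.3 and 8 of 9841 unchanged ones. The behaviour of either test with a library that stands apart, as replicate 11 does, was not tested.

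Named genes were taken from the 20 genes of highest mean, the 20 with the smallest excess-variability p, the 5 most even, all fibre type genes, the 3 highest and the most variable member of each other list, the 4 smallest p per marker and direction, both genes of each pair, the 6 largest loadings per side and the leading members of each group, not all of which are described. The members, lists and tests were chosen with earlier results of these data known, and any further gene was picked because of its values. The alternatives tried were another scaling, filters, prior counts and tools, and leaving out each sample. Tools were R 4.3.3, edgeR 4.0.16, limma 3.58.1, DESeq2 1.42.0, Python 3.11.15, numpy 2.4.6, scipy 1.17.1, pandas 2.3.3, networkx 3.6.1 and matplotlib 3.10.9. Results for some genes are not reported here.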

Additional observations from a re-analysis of the deposited data

How the results depend on the processing

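No paired analysis was possible because the 11 samples form a single group. The count of 74 genes with excess variability became 390 with a minimal filter (at least 1 count in 2 samples), 30 with a mean of at least 10 CPM and 32 with a non-robust prior, and ran from 58 to 108 when each sample was left out. Genes called with a marker changed as follows. With DESeq2 there were 3 for Myh7, 1 for Myh2, 432 for Myh4, 0 for Col1a1, 11 for Adipoq, 2 for Dbp, 91 for Pdk4 and 61 for Gm42418. With the library total as a covariate there were 3 for Hbb-bs, 1 for Gm42418 and 0 each for Col1a1, C1qa, Dbp and Fos. With a mean of at least 10 CPM there were 5 for Fos, 2 for Pdk4 and 0 each for Col1a1 and C1qa. Leaving out each sample gave 1 to 3 for Myh7, 0 to 0 for Myh2, 0 to 622 for Myh4, 2 to 7 for Hbb-bs, 0 to 2 for Col1a1, 2 to 13 for Adipoq, 0 to 3 for C1qa, 0 to 4 for Dbp, 0 to 14 for Fos, 5 to 59 for Pdk4 and 0 to 11 for Gm42418. The cause was not tested.

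Without Gm42418 in the total, the first 1, 10, 100 and 1000 genes held 6.54%, 31.3%, 53.3% and 78.5% of counts. With Gm42418 in the total, leaving out each sample gave shares from 12.3% to 12.97%, 38.3% to 39.2%, 58.6% to 59.3% and 80.9% to 81.3%. The genes at or above 1, 10, 100 and 1000 CPM then ran from 12726 to 12764, 6054 to 6070, 983 to 993 and 82 to 87, and the pairs passing from 5 to 7. The first component held 17.63% of the variance without replicate 11, an alternative chosen after seeing the data. Correlations that changed sign with 1 sample left out ranged from −0.41 to 0.13 for Pdk4 and Ucp3, −0.012 to 0.39 for Myh7 and Myh2, −0.21 to 0.30 for Pecam1 and Cdh5, −0.21 to 0.32 for Myh7 and Myh4, −0.18 to 0.57 for C1qa and C1qb, −0.059 to 0.38 for Dbp and Per3, −0.50 to 3.14e-05 for Fos and Junb and −0.22 to 0.48 for Gm42418 and mt-Rnr2. None of these pairs had passed. Of the 20 genes named for excess variability, Krt15 lost its call by limma-trend (adjusted p = 0.444), and Ddit4, Per1 and Fabp4 without 1 sample.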

Other observations

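Transcripts of seminal vesicle secretion were present in all 11 plantaris libraries. The genes were chosen after their values were seen. Svs5 had 295 ± 61.3 CPM (SD, n = 11; 770 to 1384 counts), Svs4 193 ± 41.8 CPM, Svs1 132 ± 30.3 CPM, Pate4 104 ± 22.9 CPM, Svs6 102 ± 20.8 CPM, Svs2 64.1 ± 12.7 CPM and Ceacam10 32.0 ± 7.71 CPM. Together the 7 genes ran from 636 CPM in replicate 7 over a median of 1006 to 1187 CPM in replicate 2, so that their sum exceeded that of the endothelial markers in every sample. Relative to Svs5, Svs4 ran from 0.620 to 0.697, Svs1 from 0.397 to 0.545, Pate4 from 0.313 to 0.446 and Ceacam10 from 0.0883 to 0.125. Over the 6 relations with Svs5, Pearson's r on log2 CPM was 0.91 to 0.98 and Spearman's rho 0.80 to 0.97 over 11 samples. These values are a description with no test, since the 6 genes are among the 7 of highest r with Svs5 among all tested genes. Without replicates 3 and 7, the 2 farthest from the Svs5 median, r was 0.80 to 0.97. None of the 7 was called for excess variability over the 11 samples (edgeR, adjusted p from 0.223 to 0.790), and Svs5, Svs4 and Svs1 were called without replicate 11 (adjusted p = 0.0171, 0.0198 and 0.0262). The source of these transcripts was not tested.

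Without replicate 11, excess variability was called for 44 genes that were not among the 74. They included the phosphatase Dusp1, the immediate-early genes Klf4 and Jun, the slow light chain Myl3, the globin Hba-a1, Fabp3 (a fatty acid carrier of muscle) and Scd1 (a fatty acid desaturase), with adjusted p from 0.00243 to 0.00729 (edgeR). Leaving out a sample also changes the number of residual degrees of freedom.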
